A study of Homo sapiens with 12 samples.

Results

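The insulin-like growth factor (IGF) system was followed at the mRNA level through 10 genes of the 60668 in the count table: the 6 binding proteins IGFBP2, IGFBP3, IGFBP4, IGFBP5, IGFBP6 and IGFBP7, the ligand IGF2, and the 3 receptors IGF1R, IGF2R and INSR. The genes were taken by symbol, and the family was chosen from a result in these same data, the low level of IGFBP3 after FOSL1 knockdown in PANC-1 cells. The values in that comparison are therefore a description: no p is printed for a gene in it, and calls made there by the fit across all genes are counted beside the share of all genes called, with nothing read from them. The 12 libraries came from 2 cell lines and fell into 4 groups of 3. PANC-1, a pancreatic adenocarcinoma line, carried either an shRNA against FOSL1, which encodes the AP-1 subunit FRA-1, or a scrambled shRNA. H1299, labelled as lung adenocarcinoma, carried either an shRNA against HDAC2, a class I histone deacetylase, or a scrambled shRNA. The labels give the knocked-down gene as the genotype of the knockdown groups and WT as that of the scramble groups, which also carried an shRNA vector. The labels number the knockdown vectors FOSL1-sh2 and HDAC2-sh1, so each gene was lowered by a single shRNA and an effect of that hairpin cannot be told apart from an effect of the gene. For the FOSL1 shRNA the study describes lentiviral pLKO.1 vectors and selection in puromycin. How the HDAC2 cells were made and when cells were harvested are not given in the sources used here. The labels call the 3 libraries of a group biological replicates without saying whether they were separate transductions, so the p-values measure the spread between these libraries only.

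IGFs are peptide hormones that bind the tyrosine kinase receptors encoded by IGF1R and INSR and activate the PI3K and AKT pathway. IGF2R, the cation-independent mannose 6-phosphate receptor, binds IGF2 without a kinase signal and carries it to lysosomes, where it is degraded. The binding proteins hold IGFs outside the cell, prolong their life and either withhold them from the receptors or deliver them, and proteases such as pappalysins release the bound hormone. IGFBP7 binds IGFs far more weakly than the others, and IGFBP3 also has actions that do not pass through IGFs. In tumours IGF2 and INSR often signal together, since one splice form of the insulin receptor binds IGF2 well.

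The hairpins that separate the groups are shown first, because every difference between libraries of one line rests on them. Both target sequences are printed in lower case, 5′ to 3′, as the sense strand.
FOSL1 shRNA: gagctgcagtggatggtac
Scramble: cgtacgcggaatacttcga
The FOSL1 target of 19 bases lies at chr11:65896943-65896961 of GRCh38 on the minus strand, in coding sequence of exon 2 of 4. It matched transcripts of 2 genes exactly, FOSL1 and the pseudogene FOSL1P1, and none of the 10 IGF genes. The scramble sequence matched the transcripts of 0 genes. The study lists a single FOSL1 target, without the number that the labels give, and the printed target is assumed to be the one in these libraries. No HDAC2 target was analysed here.

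The targeted genes were lower in their own comparison. FOSL1 had 219, 217 and 242 CPM, the read count per fixed library total after TMM scaling in edgeR, in the PANC-1 scramble libraries and 178, 167 and 166 CPM in the knockdown libraries, so the groups did not overlap and the log2 fold change was -0.43 (SE 0.06). HDAC2 had 171, 177 and 187 CPM in the H1299 scramble libraries and 77.2, 68.4 and 78.3 CPM after knockdown, a log2 fold change of -1.26 (SE 0.07, adjusted p = 5.4e-15, edgeR quasi-likelihood test). FOSL1 itself rose in the HDAC2 knockdown, from 446 ± 32.0 to 590 ± 26.0 CPM (SD, n = 3), which is 0.40 on the log2 scale (SE 0.06, edgeR adjusted p = 4.4e-06). Library totals ranged from 16065723 to 19173421 assigned reads, and replicates of every group differed by more than counting noise. Replicate 1 of each scramble group stood furthest from the others, where chi-square divided by its degrees of freedom was 6.21 to 9.54 against its 2 partners and 2.29 to 3.61 in the remaining pairs. The mitochondrially encoded share was 7.16% ± 0.154 in PANC-1 scramble and 12.9% ± 0.395 after FOSL1 knockdown, and 12.5% ± 0.641 and 11.7% ± 0.659 in the H1299 scramble and knockdown groups (SD, n = 3).

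The markers of the labelled tissues were only partly present. All 5 epithelial markers (EPCAM, CDH1, KRT8, KRT18 and KRT19) had a mean over 1 CPM in PANC-1 and 2 of 5 in H1299. Of 5 pancreatic duct markers, 3 were over 1 CPM in both lines, so this list did not separate them. Of 5 lung epithelial markers, 0 passed 1 CPM in PANC-1 and 1 in H1299, where the summed level was 2.63 to 3.93 CPM in scramble libraries. SFTA3, a pulmonary marker, was at 0 in all groups. Acinar and endocrine markers summed to under 1 CPM in every library, with PRSS1 and INS at 0, and of 8 immune and endothelial markers 0 passed 1 CPM in PANC-1 and 1 in H1299.

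**Figure D1:**
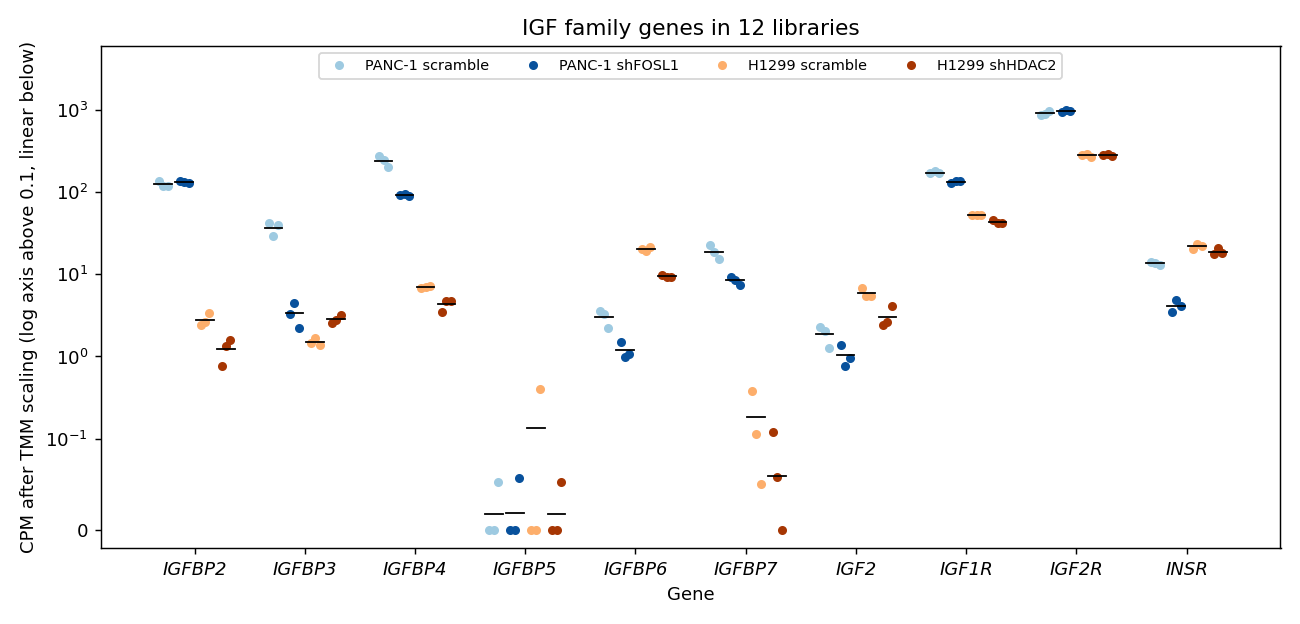
Level of the 10 IGF genes in each of the 12 libraries, in TMM-scaled CPM on an axis that is logarithmic above 0.1 CPM and linear below. Points are libraries and black bars are means of 3. IGFBP3 sat at 29.2 to 42.2 CPM in PANC-1 scramble libraries and at 1.36 to 4.52 CPM in the other 3 groups.

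The 2 lines carried different sets of binding proteins. In scramble libraries IGFBP2 and IGFBP4 were much higher in PANC-1, while IGFBP6 and IGF2 were higher in H1299. IGFBP4, which binds IGFs and withholds them from receptors, had 274, 246 and 203 CPM in PANC-1 and 6.77, 7.04 and 7.27 CPM in H1299, a log2 difference of 5.09 (SE 0.12). IGFBP2, a binding protein common in epithelial tumours, had 136, 119 and 119 CPM against 2.40, 2.59 and 3.33 CPM, a log2 difference of 5.47 (SE 0.12). IGFBP6, the binding protein that prefers IGF2 over IGF1, lay the other way, with 3.59, 3.25 and 2.19 CPM in PANC-1 and 20.1, 19.1 and 21.2 CPM in H1299, a log2 difference of -2.75 (SE 0.16). IGF2 was also lower in PANC-1, by a log2 difference of -1.66 (SE 0.22). Among the receptors, IGF1R and IGF2R were higher in PANC-1 by 1.71 (SE 0.08) and 1.70 (SE 0.07) on the log2 scale, and INSR was lower by a log2 difference of -0.69 (SE 0.11, edgeR adjusted p = 1.3e-05). IGFBP3 is described only, because its PANC-1 scramble libraries are the controls of the comparison that chose the family: it had 36.9 ± 6.88 CPM in PANC-1 and 1.51 ± 0.166 CPM in H1299 scramble (SD, n = 3). IGFBP7 passed the filter on low counts only through PANC-1, with 419, 355 and 291 counts there and 7, 2 and 1 counts in H1299, and is described only as well. Of the remaining 7 genes tested, 4 were called higher and 3 lower in PANC-1 scramble, at an adjusted p under 0.05. Across all 17619 genes tested 37.4% were called higher and 39.5% lower, so most genes differed between these lines and a call alone does not set the IGF genes apart.

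Per length of transcript the dominant binding protein also differed. Levels per kb are CPM divided by the merged exon length, which allows genes to be compared with one another. In PANC-1 scramble IGFBP4 led at 109 CPM per kb, followed by IGF2R at 40.4, IGFBP2 at 26.3 and IGF1R at 12.4. IGFBP7 at 9.77 and IGFBP3 at 8.09 CPM per kb overlapped between libraries, and IGFBP6 at 2.24, INSR at 1.26 and IGF2 at 0.26 followed in that order. In H1299 scramble IGFBP6 led at 15.0 CPM per kb, then came IGF2R at 12.4, IGF1R at 3.76, IGFBP4 at 3.19, INSR at 2.02, IGF2 at 0.82, IGFBP2 at 0.585 and IGFBP3 at 0.33, and these neighbours did not overlap. The lead of IGFBP6 over IGF2R depends on the length used. The longest transcript has 14231 bases for IGF2R, against 22613 in merged exons, and 1177 against 1346 for IGFBP6. With that length IGF2R stood above IGFBP6. IGF2 is a member whose exon bases are shared: 44.4% of them also belong to another annotated gene, 43.2% on the same strand, including INS-IGF2. INS-IGF2 had a mean of 0 CPM in every group. How reads on shared bases were counted is not given, so the level of IGF2 per kb is uncertain. Summed over the 6 binding proteins, the level per kb was 156 ± 20.7 in PANC-1 scramble and 19.2 ± 0.905 in H1299 scramble (SD, n = 3). IGFBP4 made up 70.1% of that sum in PANC-1 and IGFBP6 78.0% in H1299.

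**Figure D2:**
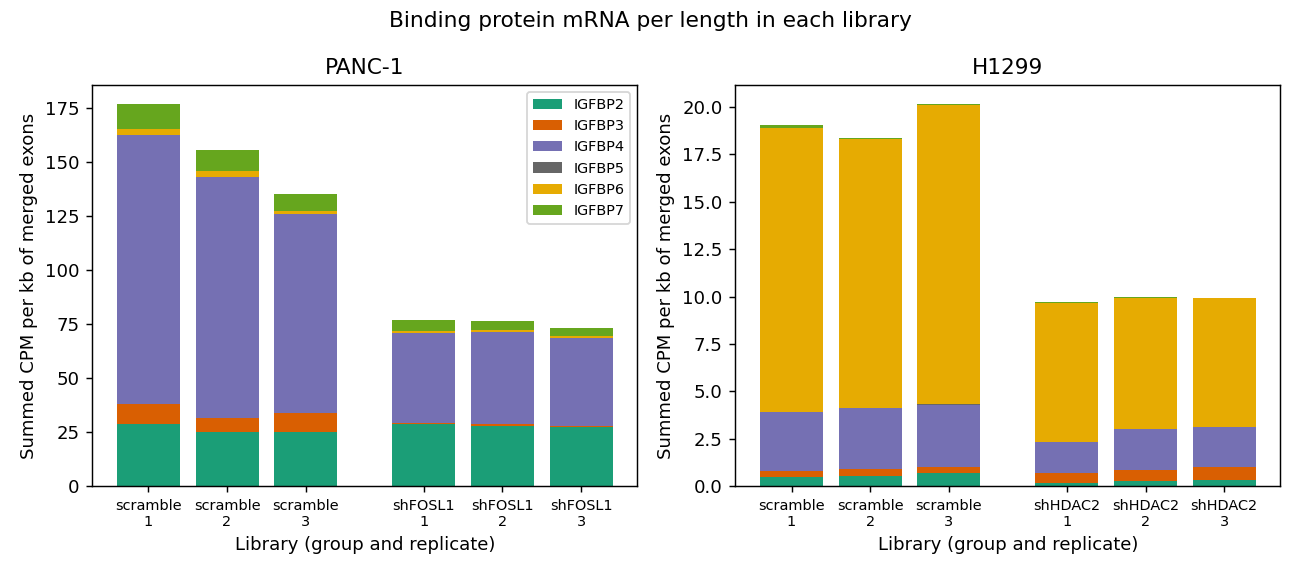
Summed level of the 6 binding proteins in each library, in CPM per kb of merged exons, stacked by gene. The 2 panels have different vertical scales, both from 0. The sum was 135 to 177 in PANC-1 scramble against 73.1 to 76.6 after FOSL1 knockdown, and 18.4 to 20.1 in H1299 scramble against 9.74 to 9.97 after HDAC2 knockdown.

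FOSL1 knockdown in PANC-1 was accompanied by low levels of most binding proteins and of the insulin receptor. Of the 9 IGF genes tested, 7 were called lower and 0 higher at an adjusted p under 0.05, with IGFBP2 and IGF2R not called, and 6 of the 7 were also lower by more than 0.5 on the log2 scale. Across all 16345 genes tested, 27.1% were called lower and 23.8% higher, and 15.8% and 10.6% with the fold threshold as well. The groups lay apart, with every knockdown library lower, in 6 of the 9 genes and in 28.3% of all genes. The family was chosen on this comparison, so nothing is read from these counts. The median log2 fold change of the 9 was -1.19, where all genes had -0.02.

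IGFBP3 gave the largest change of the family. It had 42.2, 29.2 and 39.5 CPM in the scramble libraries and 3.30, 4.52 and 2.20 CPM after knockdown, so the highest knockdown library was far below the lowest scramble library. The log2 fold change was -3.49 (SE 0.17), an 11.3-fold lower level and rank 17 from the bottom of 16345 genes. In counts this was 787, 548 and 757 against 55, 77 and 39 reads. IGFBP3 lies at chr7:45912245-45921874 on the minus strand of GRCh38, with IGFBP1 18584 bases away in a tail-to-tail arrangement. IGFBP1 had 3, 2 and 4 reads in PANC-1 scramble and 0, 1 and 4 after FOSL1 knockdown, too few to compare. On its other side the nearest protein-coding gene is TNS3, 1353279 bases away, which went from 229 ± 13.2 to 352 ± 13.9 CPM (SD, n = 3).

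The remaining binding proteins split. IGFBP4 had 274, 246 and 203 CPM in scramble and 91.2, 93.5 and 89.6 CPM after FOSL1 knockdown, a log2 fold change of -1.42 (SE 0.08), with no overlap. IGFBP6 had 3.59, 3.25 and 2.19 CPM against 1.498, 0.998 and 1.07 CPM, a log2 fold change of -1.36 (SE 0.28). IGFBP7, a secreted matrix protein, had 22.5, 18.9 and 15.2 CPM against 9.29, 8.45 and 7.50 CPM, a log2 fold change of -1.19 (SE 0.14). Each of them was lower in every knockdown library than in any scramble library. Within the scramble group IGFBP4, IGFBP6, IGFBP7 and IGF2 were all highest in replicate 1 and lowest in replicate 3. IGFBP2 behaved otherwise, with 136, 119 and 119 CPM in scramble and 136, 133 and 130 CPM after knockdown, a log2 fold change of 0.07 (SE 0.07) and overlapping groups. Without scramble replicate 1 the value for IGFBP2 was 0.16 and passed the threshold. The share of IGFBP2 in the summed level per kb went from 17.0% ± 1.39 to 37.1% ± 0.448, that of IGFBP4 from 70.1% ± 1.97 to 55.0% ± 0.871 and that of IGFBP3 from 5.24% ± 1.14 to 0.964% ± 0.318 (SD, n = 3). IGFBP2 and its neighbour IGFBP5 lie 7668 bases apart on chromosome 2 on opposite strands. IGFBP5 was not tested in any comparison: its counts were 0, 0 and 1 in 3 of the groups and 0, 0 and 8 in H1299 scramble, each time with the reads in replicate 3. A floor of 3 counts corresponds to 0.156 to 0.187 CPM in these libraries, so IGFBP5 was not detectable at this depth in 11 of the 12. Beyond that pair, RPL37A, 53647 bases away, had 622 ± 45.1 CPM in PANC-1 scramble and 508 ± 19.1 CPM after FOSL1 knockdown (SD, n = 3), and TNP1, 163908 bases away, had 0 counts in every library.

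Ligand and receptors differed among themselves. IGF2 had 2.31, 2.02 and 1.25 CPM in PANC-1 scramble and 1.38, 0.763 and 0.959 CPM after FOSL1 knockdown, so the groups overlapped, and the log2 fold change of -0.87 (SE 0.33) rests on 13 to 43 reads a library. It no longer passed the threshold with DESeq2 or without either of 2 knockdown or 2 scramble libraries. IGF1R, the main receptor for both IGFs, had 168, 178 and 171 CPM against 128, 135 and 138 CPM, a log2 fold change of -0.39 (SE 0.06). INSR had 14.2, 13.8 and 13.0 CPM against 3.48, 4.87 and 4.06 CPM, a log2 fold change of -1.75 (SE 0.14), or 3.36-fold lower. IGF2R had 875, 896 and 969 CPM against 933, 985 and 982 CPM, a log2 fold change of 0.06 (SE 0.05), and was the most abundant receptor per kb in both groups. The ratio of IGF1R to INSR per kb was 9.80 ± 0.536 in PANC-1 scramble and 25.5 ± 3.65 after FOSL1 knockdown (SD, n = 3).

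Other lists moved in the same PANC-1 libraries. The summed level of the 6 fibroblast and smooth muscle markers was 226 to 286 CPM in scramble and 76.8 to 84.4 CPM after FOSL1 knockdown, and COL1A1, a fibrillar collagen, made up most of both sums, at 248.9 ± 29.1 and 78.2 ± 4.07 CPM (SD, n = 3). PDGFRB was at 3.87 and 0.578 CPM, ACTA2 at 0.938 and 1.01 CPM and MYH11 at 1.93 and 1.64 CPM, while COL1A2 and DCN were under 1 CPM in both groups. Of the 4 genes tested, COL1A1 and PDGFRB were called lower, beside 27.1% of all genes. The epithelial markers summed to 2011 to 2570 CPM in scramble and 1547 to 1582 CPM after knockdown, with 4 of 5 called lower and 1 higher. Together with the mitochondrial share given above, their part in the IGF values was not tested. In bulk libraries, fewer cells of a type and less RNA per cell cannot be told apart.

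The HDAC2 knockdown in H1299 was not used to choose the family, so p-values are given for its genes. Earlier results of these data were known when the family was chosen, which limits these tests. IGFBP6, the dominant binding protein of that line, and IGFBP2, IGFBP4, IGF2 and IGF1R fell, whereas IGFBP3 rose. Of 8 IGF genes tested, 5 were called lower and 1 higher, and IGF2R and INSR were not called. Across all 16465 genes tested 12.1% were called lower and 10.3% higher. With a log2 fold change over 0.5 in size as well, 4 of the 8 were lower and 1 higher, where 5.61% and 1.45% of all genes were. The median log2 fold change of the 8 was -0.49, against -0.005 over all genes.

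IGFBP6 showed the clearest change. It had 20.1, 19.1 and 21.2 CPM in scramble and 9.90, 9.30 and 9.14 CPM after HDAC2 knockdown, a log2 fold change of -1.10 (SE 0.10, edgeR adjusted p = 2.0e-09). The groups lay well apart, with 339 to 420 reads against 159 to 174. IGFBP4 fell from 6.77, 7.04 and 7.27 CPM to 3.52, 4.74 and 4.67 CPM, a log2 fold change of -0.70 (SE 0.16, edgeR adjusted p = 0.00129). IGFBP2 fell from 2.40, 2.59 and 3.33 CPM to 0.775, 1.35 and 1.58 CPM, a log2 fold change of -1.16 (SE 0.28, edgeR adjusted p = 0.00248), on only 13 to 66 reads a library. Every knockdown library was lower than every scramble library for IGFBP2, IGFBP4, IGFBP6, IGF2 and IGF1R, which makes 5 of the 8 genes tested, where 18.7% of all genes tested did so. IGFBP3 moved the other way, from 1.47, 1.69 and 1.36 CPM to 2.56, 2.75 and 3.15 CPM, a log2 fold change of 0.90 (SE 0.25, edgeR adjusted p = 0.00796), with every knockdown library above every scramble library. In reads this was 27, 30 and 27 against 43, 47 and 60, and without knockdown replicate 3 the adjusted p was 0.0534 at a log2 fold change of 0.82. IGFBP7 had 7, 2 and 1 reads in scramble and 2, 1 and 0 after knockdown and was not tested.

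IGF2 fell in H1299 from 6.77, 5.41 and 5.40 CPM to 2.39, 2.63 and 4.10 CPM after HDAC2 knockdown, a log2 fold change of -0.94 (SE 0.19, edgeR adjusted p = 5.3e-04). The groups did not overlap, and replicate 3 of the knockdown lay above its partners. IGF1R fell slightly, from 52.4, 52.4 and 52.5 CPM to 45.4, 42.3 and 42.5 CPM, a log2 fold change of -0.28 (SE 0.07, edgeR adjusted p = 0.00466). INSR had 20.04, 23.5 and 22.1 CPM against 17.7, 20.6 and 18.2 CPM, which overlapped, with a log2 fold change of -0.22 (SE 0.10, edgeR adjusted p = 0.0969). Without scramble replicate 1, which stood apart, INSR was called lower at a log2 fold change of -0.28. IGF2R had 282, 292 and 267 CPM against 285, 294 and 274 CPM, a log2 fold change of 0.02 (SE 0.06, edgeR adjusted p = 0.869) whose sign turned under 3 of the alternatives. The ratio of IGF1R to INSR per kb was 1.87 ± 0.152 in scramble and 1.80 ± 0.198 after HDAC2 knockdown (SD, n = 3). The summed binding protein level per kb was 19.2 ± 0.905 in scramble and 9.88 ± 0.126 after knockdown, in which IGFBP6 held 78.0% ± 0.635 and 71.0% ± 3.92 and IGFBP3 1.73% ± 0.269 and 6.25% ± 0.616 (SD, n = 3). Per kb of merged exons, IGF2R at 12.6 stood above IGFBP6 at 7.02 after knockdown. With the longest transcript as the length, IGF2R stood above IGFBP6 in scramble as well. The fibroblast and smooth muscle markers summed to 9.18 to 11.2 CPM in scramble and 8.13 to 8.35 CPM after HDAC2 knockdown, and the epithelial markers to 544 to 606 CPM and 342 to 362 CPM, and their part in the IGF values was not tested.

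**Figure D3:**
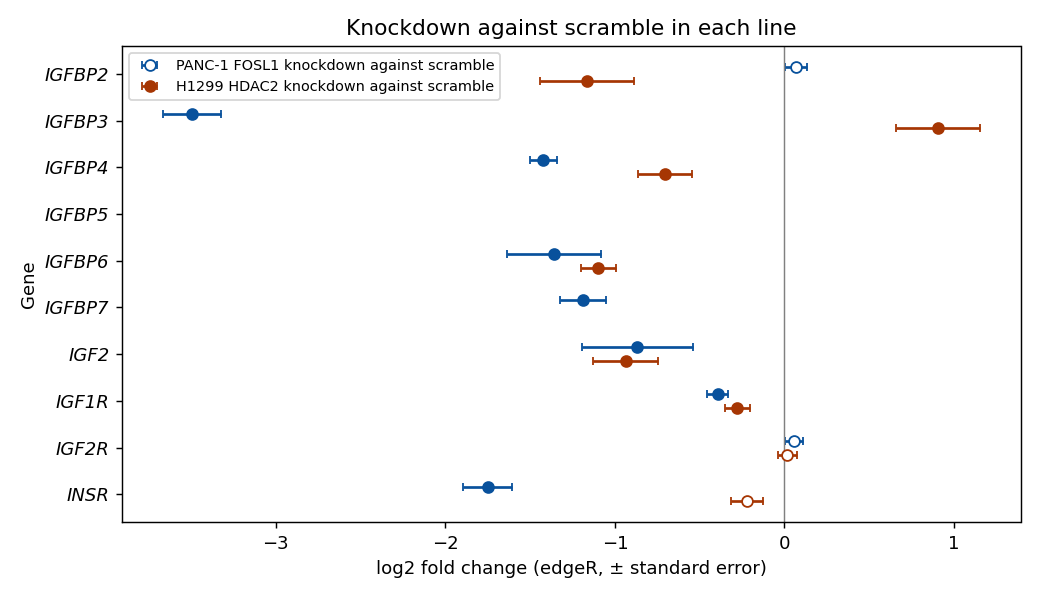
Log2 fold change with its standard error for each IGF gene tested, FOSL1 knockdown against scramble in PANC-1 and HDAC2 knockdown against scramble in H1299, 3 libraries a group. Filled points were called at an adjusted p under 0.05, and open points were not. IGFBP3 lies at -3.49 in PANC-1 and at 0.90 in H1299, and IGF2R near 0 in both.

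Set side by side, the values of both knockdowns had the same sign for some genes and not for others. IGFBP4 was at -1.42 and -0.70 on the log2 scale after FOSL1 and HDAC2 knockdown, IGFBP6 at -1.36 and -1.10, IGF2 at -0.87 and -0.94 and IGF1R at -0.39 and -0.28. INSR was at -1.75 and -0.22, IGFBP3 at -3.49 and 0.90, and IGFBP2 at 0.07 and -1.16. FOSL1 itself stood at -0.43 in the PANC-1 comparison and 0.40 in the H1299 comparison, and HDAC2 at 0.05 and -1.26. These differences between effects were not tested, and since both the targeted gene and the cell line differ, their contributions cannot be told apart. The knockdown comparisons share no library.

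Over all 12 libraries, the gene whose log2 CPM followed IGFBP3 most closely was HJURP, a histone chaperone of centromeres, with a Pearson r of 0.986 among 11563 genes compared. DNMT3B, a DNA methyltransferase, followed at 0.978, MAD2L1, a spindle checkpoint protein, at 0.977, NTNG2 at 0.976 and LPCAT4 at 0.971. HJURP had means of 349 CPM in PANC-1 scramble, 186 in PANC-1 FOSL1 knockdown, 158 in H1299 scramble and 192 in H1299 HDAC2 knockdown. The 12 points form 4 groups in 2 lines, so these values describe the group pattern and carry no p.

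Promoter sequences are shown for IGFBP3, IGFBP4 and INSR, the 3 IGF genes with the largest changes after FOSL1 knockdown, because FOSL1 acts as a DNA-binding AP-1 subunit. Each line gives the 250 bases before the RefSeq transcript start on GRCh38.p14, 5′ to 3′ along the gene's strand, with matches to the searched motifs in capitals. For IGFBP3 this window lies within an intron of a longer GENCODE transcript model.
IGFBP3, chr7:45921273-45921522, minus strand: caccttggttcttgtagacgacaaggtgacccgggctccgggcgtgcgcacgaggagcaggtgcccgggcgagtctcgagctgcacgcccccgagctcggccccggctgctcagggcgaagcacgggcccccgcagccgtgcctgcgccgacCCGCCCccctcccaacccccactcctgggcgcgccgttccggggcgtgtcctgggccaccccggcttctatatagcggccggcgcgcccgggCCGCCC
IGFBP4, chr17:40443200-40443449, plus strand: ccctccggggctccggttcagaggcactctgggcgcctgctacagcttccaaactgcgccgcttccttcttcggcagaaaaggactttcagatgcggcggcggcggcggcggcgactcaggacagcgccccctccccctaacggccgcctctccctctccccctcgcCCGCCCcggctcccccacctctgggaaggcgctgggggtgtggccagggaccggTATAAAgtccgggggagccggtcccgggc
INSR, chr19:7294415-7294664, minus strand: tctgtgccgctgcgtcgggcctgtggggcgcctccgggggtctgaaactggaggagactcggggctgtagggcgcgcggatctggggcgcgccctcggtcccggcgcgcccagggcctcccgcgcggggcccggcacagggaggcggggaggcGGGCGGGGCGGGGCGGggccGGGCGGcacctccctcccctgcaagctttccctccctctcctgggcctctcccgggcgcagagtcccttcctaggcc
The capitals mark the GC box GGGCGG, read on the minus strand as CCGCCC, and in IGFBP4 also the TATA box TATAAA. In INSR 3 GC boxes abut, sharing 1 base with each neighbour. Of the 10 IGF genes, 8 matched the RefSeq promoter table with 10 windows of 300 bases (250 before and 50 after the start); IGFBP7 and IGF2 were not matched. Searched on both strands, the AP-1 motif TGANTCA was in 0 of the 10 windows and in 7.71% of all 35116 promoters, and the CRE TGACGTCA in 0 of 10 and 1.85%. The GC box was in 8 of 10 windows, where 45% of all promoters held it. The TATA box was found in the IGFBP4 window alone (11.5% of all promoters), the E-box CACGTG in that of IGF2R alone (7.26%), and the FOXO motif GTAAACA in that of IGFBP6 alone (3.42%). A match or its lack describes only these letters in this window.

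Several other family genes had few or no counts in both lines. IGF1, the other ligand, had 0 counts in all PANC-1 libraries and in the HDAC2 knockdown, and 6, 0 and 0 counts in H1299 scramble. INS was at 0 throughout, and IGFALS, which carries circulating IGF complexes, INSRR and the antisense IGF2-AS were below the filter. H19, the non-coding neighbour of IGF2 whose imprinting is opposite to it, had 296 ± 16.8 CPM in PANC-1 scramble and 296 ± 10.8 CPM after FOSL1 knockdown (SD, n = 3), and 0 to 3 counts in each H1299 library. IGFBPL1, a binding-protein-like gene, was lower after FOSL1 knockdown at a log2 fold change of -0.83 (SE 0.10) and was at 0.07 (SE 0.10) in H1299. KAZALD1, a secreted protein with an IGF-binding domain, was at 0.33 (SE 0.14) after FOSL1 knockdown and fell in H1299 with a log2 fold change of -0.63 (SE 0.09, edgeR adjusted p = 5.7e-06).

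Genes that release, sort or read out IGFs were taken as lists beside the family. Proteases that cut binding proteins and their inhibitors had 6 of 7 tested genes called lower and 1 higher after FOSL1 knockdown (27.1% and 23.8% of all genes), with a median log2 fold change of -0.41. STC1, an inhibitor of pappalysins, was at -2.16 (SE 0.16) and CTSD, the lysosomal cathepsin D, at 0.47 (SE 0.06). The pappalysin genes PAPPA and PAPPA2 were below the filter in PANC-1, at 0.07 CPM each in scramble. After HDAC2 knockdown 2 of 9 were lower and 1 higher (12.1% and 10.3% of all genes), with a median of -0.07: CTSD fell with a log2 fold change of -0.84 (SE 0.07, edgeR adjusted p = 2.1e-10), STC2 fell with -0.75 (SE 0.10) and STC1 rose by 0.36 (SE 0.06). STC1 and CTSD thus stood on opposite sides of 0 in both comparisons, a difference that was not tested.

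Proteins that bind or regulate IGF2 mRNA had 6 of 8 tested genes called lower and 1 higher after FOSL1 knockdown (27.1% and 23.8% of all genes), with a median of -0.36. LIN28B, an RNA-binding protein that blocks let-7, was at -1.03 (SE 0.17), HMGA2, a chromatin protein and let-7 target, at -0.78 (SE 0.07) and CTCF, the insulator protein of the imprinted locus, at 0.28 (SE 0.08). After HDAC2 knockdown 1 of 8 was lower and 2 higher (12.1% and 10.3% of all genes), with a median of 0.09. LIN28B rose by 0.47 (SE 0.07, edgeR adjusted p = 1.5e-05), CTCF rose by 0.24 (SE 0.06) and IGF2BP2, which binds IGF2 mRNA, fell with a log2 fold change of -0.28 (SE 0.06). Receptor convertases and mannose 6-phosphate sorting had 3 of 11 lower and 2 higher after FOSL1 knockdown, with a median of -0.09, and 1 of 12 lower and 2 higher after HDAC2 knockdown, with a median of -0.0007, beside the same shares of all genes, to which the PANC-1 counts are near. SORT1, a sorting receptor, was at -0.78 (SE 0.09) in PANC-1, and GNPTAB, which adds the mannose 6-phosphate tag, was at -0.26 (SE 0.08) in PANC-1 and fell in H1299 with a log2 fold change of -0.41 (SE 0.09, edgeR adjusted p = 0.00122).

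Of 4 IGFBP3 partners at the surface and in the nucleus, 1 was lower and 2 higher after FOSL1 knockdown (median 0.21) and 2 were lower and 0 higher after HDAC2 knockdown (median -0.19), beside the same shares. LRP1, an endocytic receptor that binds IGFBP3, was at -0.74 (SE 0.07) in PANC-1 and fell in H1299 with a log2 fold change of -0.55 (SE 0.07, edgeR adjusted p = 3.2e-07). CAV1, the coat protein of caveolae, was at 0.44 (SE 0.05) in PANC-1. RXRA, a nuclear receptor partner, was at 0.31 (SE 0.08) in PANC-1 and -0.27 (SE 0.10) in H1299.

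Receptor adaptors and brakes had 8 of 20 lower and 7 higher after FOSL1 knockdown (median 0.10) and 2 of 19 lower and 2 higher after HDAC2 knockdown (median 0.02). All genes had 27.1% lower and 23.8% higher in PANC-1 and 12.1% and 10.3% in H1299, and the H1299 counts of this list are near those shares. IRS1, a docking protein of both kinase receptors, was at 0.75 (SE 0.08) in PANC-1 and rose in H1299 by 0.24 (SE 0.07, edgeR adjusted p = 0.00915). IRS2, another docking protein, lay the other way in PANC-1 at -1.02 (SE 0.08), with 68.0 CPM in scramble and 34.1 CPM after knockdown. In H1299 IRS2 was not called. The brakes went both ways in PANC-1. GRB14 and SOCS1 were at -1.83 (SE 0.36) and -1.35 (SE 0.27), both at under 4 CPM. SOCS3 was at -1.17 (SE 0.08), with 89.7 CPM in scramble and 40.4 CPM after knockdown. GRB10, at 59.7 CPM in scramble and 83.8 CPM after knockdown, was at 0.47 (SE 0.07). The adaptor SHC1 fell in H1299 with a log2 fold change of -0.32 (SE 0.06). The PI3K, AKT and mTOR list had 6 of 27 lower and 6 higher after FOSL1 knockdown (median 0.07) and 4 of 27 lower and 5 higher after HDAC2 knockdown (median 0.04), counts near the shares of all genes in PANC-1. PIK3CD, a PI3K catalytic subunit, was at -0.77 (SE 0.08) in PANC-1 and fell in H1299 with a log2 fold change of -0.41 (SE 0.09), and RPS6KB2, a ribosomal S6 kinase, was at 0.81 (SE 0.07) in PANC-1 and rose in H1299 by 0.33 (SE 0.08).

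FOXO factors are kept out of the nucleus by AKT and induce genes that include INSR. The list taken here holds the factors FOXO1, FOXO3, FOXO4 and FOXO6 themselves beside genes they induce. Among the latter is IRS2, which is in the adaptor list as well. After FOSL1 knockdown 14 of the 15 genes of this list, the named factors included, were called lower and 0 higher, with a median of -0.68, beside 27.1% and 23.8% of all genes. INSR is one of the 14, at -1.75, and the other large values were TXNIP, an inhibitor of thioredoxin and of glucose uptake, at -4.07 (SE 0.11), and SESN3, a sestrin, at -2.42 (SE 0.28). All lists were chosen with earlier results of these data known, among them the large change in TXNIP. This comparison also chose the family that holds INSR, so nothing is read from the FOXO count. After HDAC2 knockdown 2 of 14 were lower and 1 higher, with a median of -0.10, beside 12.1% and 10.3% of all genes. FOXO4 and FOXO3 fell with log2 fold changes of -0.36 (SE 0.10) and -0.25 (SE 0.08), and CDKN1B, a cell cycle inhibitor, rose by 0.30 (SE 0.07, edgeR adjusted p = 0.00148).

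**Figure D4:**
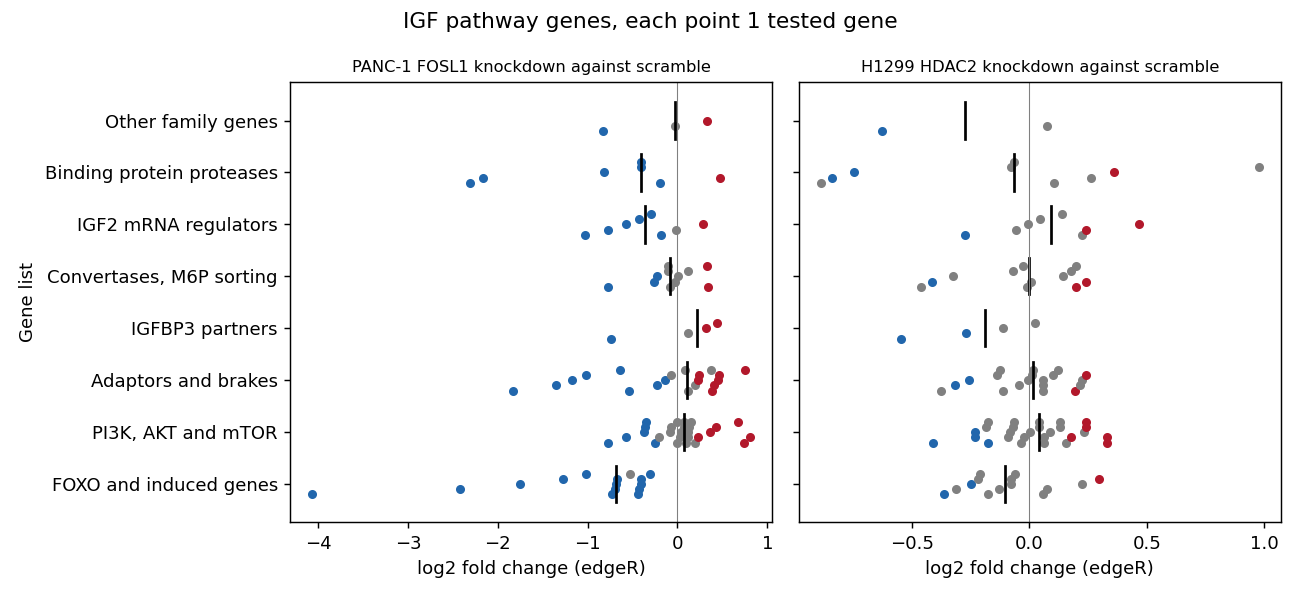
Log2 fold change of each tested gene in 8 lists beside the IGF family, FOSL1 knockdown in PANC-1 on the left and HDAC2 knockdown in H1299 on the right, with different horizontal scales. Blue and red points were called lower and higher at an adjusted p under 0.05, grey points were not called, and black bars are list medians. The FOXO list has 14 blue points of 15 on the left and 2 of 14 on the right. The lists were chosen with earlier results of these data known.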

How the data were processed

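RNA-seq was analysed from 12 libraries, grouped by the sample labels. The authors deposited raw counts per gene, whole numbers for 60668 genes. Per the submitters' notes, cutadapt and FastQC were used, reads were aligned with STAR 2.7.2b to GRCh38 and counted with featureCounts 2.0.1. The annotation release, the strand setting and the handling of reads with several positions are not given in the sources used here, so overlapping genes such as IGF2 are uncertain.

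Counts were tested with edgeR 4.0.16 in R 4.3.3: filterByExpr, scaling by TMM (trimmed mean of M-values), the quasi-likelihood test within the 6 libraries compared, and Benjamini-Hochberg adjustment over all genes kept (16345 in PANC-1, 16465 in H1299, 17619 between scramble groups). SE is the log2 fold change divided by the square root of F. Levels are CPM with TMM factors over 12 libraries. GENCODE release 44 gave positions and exon lengths, with 60340 identifiers found in it. Calls required an adjusted p under 0.05. With 3 against 3 libraries an exact permutation test cannot go below 0.1, so no permutation test was made, and sums, shares and ratios carry no p. Intervals for single libraries were not used, since replicates spread beyond counting error.

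The family members and all lists were chosen with earlier results of these data known. All 10 members are named, and in each list and knockdown up to 2 called genes per direction with the largest change and a mean of at least 1 CPM, of which the text gives a part. IRS2, SOCS3, PAPPA and PAPPA2 are named in addition, beside IRS1, SOCS1 and STC1. Genes compared with IGFBP3 had a mean of at least 5 CPM, and r was taken on log2 CPM with a prior count of 2. Alternatives were DESeq2 1.42.0, limma-voom (limma 3.58.1), RLE and upper quartile scaling, filters of 1 count in total and 10 counts in every library, a log2 threshold of 0.5, all 12 libraries in a single fit, a replicate block, leaving out mitochondrially encoded and the 20 most abundant genes, and leaving out each library. The edgeR step was tested on simulated data.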

Additional observations from a re-analysis of the deposited data

How the results depend on the processing

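The count of IGF genes called changed by less than 1.5 times in every alternative run for the 3 comparisons. Leaving out 1 library gave 6 to 7 calls for FOSL1 knockdown, 5 to 7 for HDAC2 knockdown and 9 to 9 between the scramble groups, a count that includes IGFBP3 and IGFBP7, which are described only. Of 135 single-gene values for FOSL1 knockdown 129 kept direction and call, of 120 for HDAC2 knockdown 115 did, and of 134 between the lines all 134 did. The call of IGF2 in PANC-1 was lost with DESeq2 (log2 fold change -0.85), without knockdown replicate 2 (-0.69) or 3 (-0.81) and without scramble replicate 1 (-0.66) or 2 (-0.79). IGFBP2 in PANC-1 passed the threshold without scramble replicate 1 (0.16). In H1299 the call of IGFBP3 was lost without knockdown replicate 3 (0.82), INSR was called lower without scramble replicate 1 (-0.28), and IGF2R turned to -0.0012 with upper quartile scaling, -0.0053 without knockdown replicate 2 and -0.016 without scramble replicate 3, in a range of -0.016 to 0.054 over the fits that leave out 1 library. The causes were not tested. Same-numbered libraries deviated together with correlations of -0.0077 to 0.0098 in PANC-1 and -0.022 to 0.022 in H1299, so the numbers do not pair them, and the fit with the replicate block gave 7, 6 and 9 calls, the same as without it. Between the lines the correlations were 0.137, 0.039 and 0.042. With the longest transcript as the length, 32 of 40 places in the order of levels per kb held, and 40 of 40 with RLE scaling. The places that moved with the longest transcript include the top of H1299 scramble, where IGF2R then stood above IGFBP6. Low counts limit IGF2 and IGFBP6 in PANC-1 and IGFBP2 and IGFBP3 in H1299, and IGFBP5 and IGFBP7 could not be tested in H1299.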
